A study of Mus musculus with 15 samples.

Results

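The core circadian clock genes of mouse liver examined here are Clock, Npas2, Per1, Per2, Per3, Cry1, Cry2, Nr1d1, Nr1d2 and Dbp. They were taken by gene symbol from the deposited count table, and they are 10 of its 26264 genes. All 10 had enough counts to be among the 13189 genes tested. The data are poly(A) RNA-seq libraries of 15 mouse livers, 3 in each of 5 groups. HFD-337 is a high-fat diet group whose number matches Gc337, the agent that the series names for knockdown of the protein kinase gene Stk25 (its title speaks of an antisense oligonucleotide). HFD-338 is a high-fat diet group for which the labels do not say what 338 stands for. HFD-Res is the high-fat diet group whose label matches resmetirom, a drug that activates the beta form of the thyroid hormone receptor. HFD-NS and SD-NS carry neither agent in their names, and the labels spell out neither NS nor SD. Strain, sex, age, dose, hour of sampling and feeding state are not given in the labels, so a difference in the hour of death or in feeding cannot be told apart from a difference between groups. The spread between the 3 animals of a group is the only error measured, and p-values refer to that spread alone. In the main fit it was estimated from all 5 groups together, so a p-value also depends on groups outside its comparison.

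The mammalian clock is a feedback loop of transcription and translation that runs in almost every cell and sets the daily rhythm of liver metabolism. CLOCK, or its relative NPAS2, pairs with BMAL1 (gene Arntl) and binds E-boxes in the Per, Cry and Nr1d genes and in Dbp. The PER and CRY proteins then block that activator, while the REV-ERB receptors, made from Nr1d1 and Nr1d2, repress Arntl, Npas2, Clock and Cry1. Transcripts of the activator arm and of most E-box targets peak at roughly opposite times of day in mouse liver. A single collection per animal gives 1 point of that cycle and no phase or amplitude.

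Among the 5 groups, 9 of the 10 genes differed, against 80.9% of all tested genes (edgeR's quasi-likelihood test, adjusted p under 0.05 after Benjamini-Hochberg adjustment over all 13189 genes). Per1 was the exception, with an adjusted p of 0.394 for any difference. All 10 genes were called when HFD-337 replicate 23 was left out. Group means of Clock, Npas2 and Cry1 were highest in SD-NS, and those of Per2, Per3, Cry2, Nr1d1, Nr1d2 and Dbp were lowest there. HFD-337 had the highest mean of 6 genes (Per1, Per2, Per3, Cry2, Nr1d1 and Dbp) and the lowest mean of Clock and Cry1. Libraries of HFD-337 lay above all 12 others for Per2, Nr1d1 and Dbp and below all 12 others for Clock and Cry1. The share of all tested genes for which a group stands apart in this way was not computed. In the comparisons of HFD-337 with each other group, 47.2% to 58.4% of all tested genes were called.

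**Figure D1:**
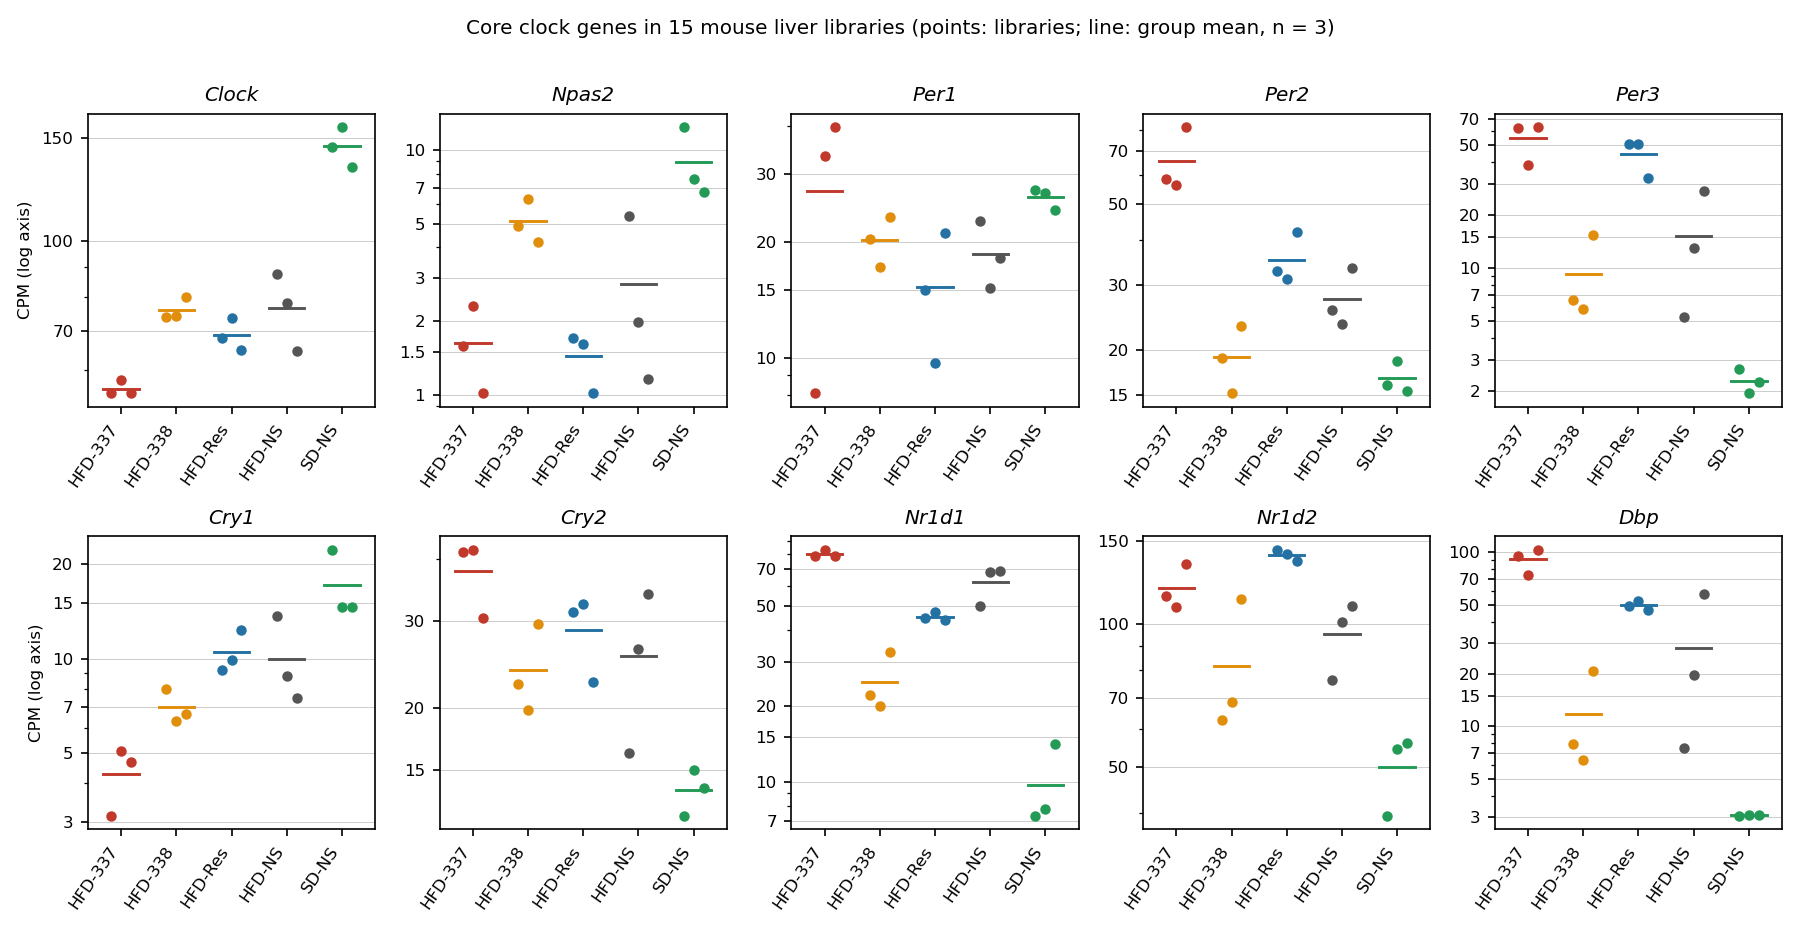
Depth-scaled counts (CPM with TMM factors, log axis) of the 10 core clock genes in HFD-337, HFD-338, HFD-Res, HFD-NS and SD-NS livers; each point is a library and each line the mean of a group (n = 3). The HFD-337 points lie lowest and the SD-NS points highest for Clock (54.8 to 57.6 against 133.9 to 156.5 CPM), and the reverse holds for Dbp (74.1 to 103.5 against 3.06 to 3.11 CPM).

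Promoter sequences are shown for 4 members and for Ciart, another clock gene, because they hold short matches to the elements through which the loop is known to act. The 250 bases before each start site in the RefSeq table (build GRCm38.p6) were searched on both strands for the E-box CACGTG, its variant CACGTT, the D-box forms TTATGTAA and TTACGTAA, to which DBP and its relatives bind, and the half-site AGGTCA of REV-ERB and ROR receptors. Of the 10 members 9 had an entry, and 7 of these held at least 1 of the 5 words, with 0 overlaps between matches. The share of all windows that hold any of the 5 words was not computed. A member was counted if any of its windows held a word, whereas the shares below are per window. Clock had 3 windows, with a match only in window 3, and Per1 had 2, with matches only in window 1. CACGTG was found in 2 members (Per1 and Cry1) and in 6.02% of all 32817 windows. CACGTT was found in 3 members (Cry1, Cry2 and Nr1d1) and in 3.85% of windows. TTATGTAA occurred in 0.817% of windows and in 1 member, Per3, which holds it 2 times, at 205 and 158 bases before the start. TTACGTAA was found in 0 members and in 0.113% of windows, and AGGTCA in 3 members (Clock, Per1 and Nr1d2) and in 14% of windows. A match is a description of letters and not evidence of binding. Sequences run 5′ to 3′ on the strand of the gene, and capitals mark the matches. They come from chr11:69098699-69098948 on the plus strand for Per1, and on the minus strand from chr4:151044666-151044915 for Per3, chr10:85185055-85185304 for Cry1, chr11:98775378-98775627 for Nr1d1 and chr3:95882229-95882478 for Ciart.
Per1: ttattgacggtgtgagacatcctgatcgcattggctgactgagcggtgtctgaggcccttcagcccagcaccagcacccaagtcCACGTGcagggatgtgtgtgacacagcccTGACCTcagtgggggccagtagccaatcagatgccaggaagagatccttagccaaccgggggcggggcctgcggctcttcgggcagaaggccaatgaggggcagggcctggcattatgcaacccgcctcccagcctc
Per3: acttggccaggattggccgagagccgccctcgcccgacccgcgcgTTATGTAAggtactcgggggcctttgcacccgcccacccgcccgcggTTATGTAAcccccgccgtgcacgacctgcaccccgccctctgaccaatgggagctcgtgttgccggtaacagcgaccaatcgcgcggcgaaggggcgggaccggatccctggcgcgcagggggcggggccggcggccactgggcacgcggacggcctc
Cry1: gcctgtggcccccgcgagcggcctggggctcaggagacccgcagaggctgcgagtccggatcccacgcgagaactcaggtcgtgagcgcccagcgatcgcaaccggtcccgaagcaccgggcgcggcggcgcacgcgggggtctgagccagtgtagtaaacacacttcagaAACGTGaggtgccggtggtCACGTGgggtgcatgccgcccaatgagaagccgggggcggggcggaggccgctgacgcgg
Nr1d1: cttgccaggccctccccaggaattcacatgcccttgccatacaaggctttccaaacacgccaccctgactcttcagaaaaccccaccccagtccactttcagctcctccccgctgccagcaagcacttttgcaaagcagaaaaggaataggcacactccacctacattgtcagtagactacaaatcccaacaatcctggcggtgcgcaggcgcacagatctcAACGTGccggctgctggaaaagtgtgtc
Ciart: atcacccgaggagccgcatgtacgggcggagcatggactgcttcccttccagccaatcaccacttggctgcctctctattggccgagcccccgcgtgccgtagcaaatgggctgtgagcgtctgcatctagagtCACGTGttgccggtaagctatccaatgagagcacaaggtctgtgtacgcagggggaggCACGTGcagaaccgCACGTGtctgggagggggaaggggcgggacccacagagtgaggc

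Counts of called members differed widely between comparisons. HFD-NS against SD-NS gave 9 called members, of which Per2, Per3, Cry2, Nr1d1, Nr1d2 and Dbp rose and Clock, Npas2 and Cry1 fell, where 28.1% of all tested genes were called. HFD-337 against HFD-NS gave 5, with rises of Per2, Per3 and Dbp and falls of Clock and Cry1, where 47.2% of all genes were called, so this share of the members is near the background. HFD-338 against HFD-NS gave 2, the falls of Per2 and Nr1d1, below the background of 36.8%. HFD-Res against HFD-NS gave 0 with edgeR, where 13% of all genes were called. Of those 10 members 3 had an unadjusted p under 0.05 (Per3, Nr1d1 and Nr1d2), and 1 was called with DESeq2, 1 with limma-voom and 1 on recomputed TPM, each time Per3. A fit of those 2 groups alone called 2, Nr1d1 and Nr1d2. These 4 comparisons share the HFD-NS libraries. In absolute size the median log2 difference of the members was 0.93 in HFD-NS against SD-NS, where that of all tested genes was 0.32. It was 0.64 in HFD-337 against HFD-NS (all genes 0.45), 0.52 for HFD-338 (0.32) and 0.41 for HFD-Res (0.22).

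**Figure D2:**
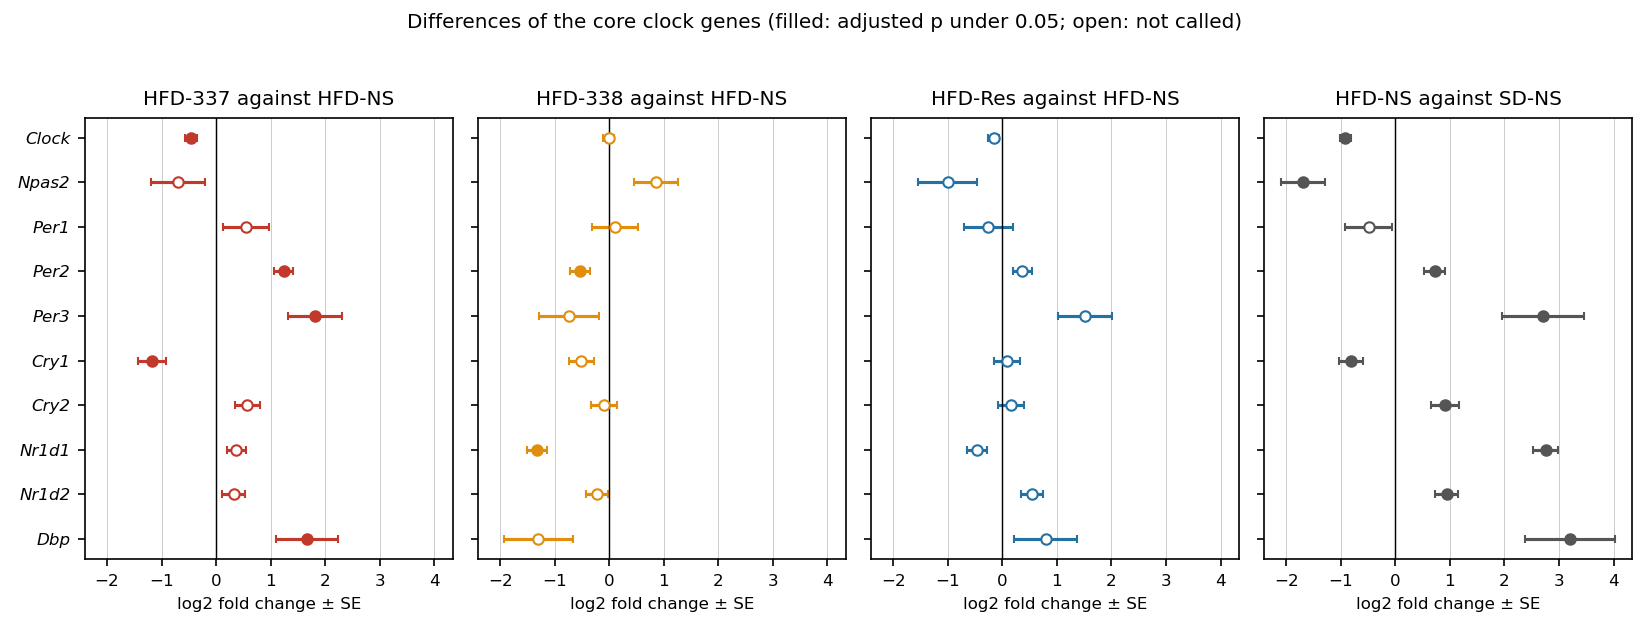
Log2 fold change ± SE of each core clock gene (edgeR) for HFD-337, for HFD-338 and for HFD-Res against HFD-NS, and for HFD-NS against SD-NS; filled points were called at an adjusted p under 0.05 and open points were not. The panel of HFD-NS against SD-NS has 9 filled points, that of HFD-337 has 5, that of HFD-338 has 2 and that of HFD-Res has 0.

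Single libraries moved several of these counts. HFD-NS against SD-NS fell to 5 called members without HFD-NS replicate 16 and to 5 without SD-NS replicate 6. HFD-338 against HFD-NS had 1 without HFD-338 replicate 17 or 18 and 4 without HFD-NS replicate 12. HFD-Res against HFD-NS had 2 (Per3 and Dbp) without HFD-NS replicate 16 and 1 (Nr1d1) without HFD-NS replicate 12. No called difference changed direction in any of these fits.

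HFD-337 and HFD-338 differed from each other in 9 members, with rises of Per2, Per3, Cry2, Nr1d1, Nr1d2 and Dbp and falls of Clock, Npas2 and Cry1 in HFD-337, where 58.4% of all genes were called. Of these, Cry1, Cry2 and Nr1d2 lost the call when any 1 of 4 of the 6 libraries was left out, HFD-337 replicate 23 and HFD-338 replicate 17 among them for each gene. On recomputed TPM those of Cry2 and Nr1d2 were lost as well (adjusted p = 0.202 for both). HFD-337 against HFD-Res gave 4 called members (Per2 and Nr1d1 rose, Clock and Cry1 fell), near the background of 47.6%. The call of Clock was lost without HFD-337 replicate 23 (adjusted p = 0.0567) or HFD-Res replicate 30 (0.0915). HFD-338 against HFD-Res gave 6, a rise of Npas2 and falls of Per2, Per3, Nr1d1, Nr1d2 and Dbp, against 43.1% of all genes. That of Dbp was lost without HFD-338 replicate 17 (0.0773) or 18 (0.0821). Set against SD-NS, HFD-337 had 9 called members (background 55.2%), HFD-338 had 5 (background 48.7%) and HFD-Res had 9 (background 26.9%). HFD-338 against SD-NS had 3 rises and 2 falls, 5 rises and 2 falls on recomputed TPM, and 3 calls without SD-NS replicate 6 (those of Cry2 and Nr1d2 lost). In HFD-337 and in HFD-Res against SD-NS, 6 members rose and 3 fell, with Cry1 lost in HFD-Res without SD-NS replicate 6 (0.218) or HFD-Res replicate 29 (0.0992) or 30 (0.0782).

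Of the activator arm, Clock encodes the DNA-binding partner of BMAL1 (chromosome 5, 76357715 to 76452639, minus strand, mm39). Clock stood at 54.9, 57.6 and 54.8 CPM in HFD-337, 74.0, 74.2 and 80.1 CPM in HFD-338, 68.1, 73.8 and 64.9 CPM in HFD-Res, 87.6, 78.1 and 64.7 CPM in HFD-NS, and 144.7, 156.5 and 133.9 CPM in SD-NS. All 3 SD-NS libraries lay above all others, all 3 HFD-337 libraries lay below all others, and HFD-NS overlapped both HFD-338 and HFD-Res. Clock fell by 0.92 ± 0.10 on the log2 scale in HFD-NS against SD-NS (adjusted p = 3.59e-06) and by 0.46 ± 0.10 in HFD-337 against HFD-NS (adjusted p = 0.00127). Both calls held in all fits that left out 1 library. Against HFD-NS the log2 difference was -0.01 ± 0.10 in HFD-338 (adjusted p = 0.937) and -0.16 ± 0.10 in HFD-Res (adjusted p = 0.37), neither of them called.

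Npas2, which can stand in for Clock, was the least abundant member, with 5 to 93 counts per library (chromosome 1, 39233353 to 39402321, plus strand, mm39). Its level was 1.58, 2.31 and 1.02 CPM in HFD-337, 4.90, 6.31 and 4.19 CPM in HFD-338, 1.71, 1.61 and 1.02 CPM in HFD-Res, 5.37, 1.99 and 1.16 CPM in HFD-NS, and 12.4, 7.58 and 6.75 CPM in SD-NS. SD-NS lay above every other library, and HFD-NS overlapped each of the other high-fat groups. Npas2 fell by 1.69 ± 0.40 on the log2 scale in HFD-NS against SD-NS (adjusted p = 0.00484) and by 1.56 ± 0.46 in HFD-337 against HFD-338 (adjusted p = 0.00825). HFD-338 exceeded HFD-Res by 1.86 ± 0.50 (adjusted p = 0.00654). Against HFD-NS the difference was 0.86 ± 0.41 in HFD-338 (adjusted p = 0.109), which became 1.71 without HFD-NS replicate 12 (adjusted p = 0.00228) and was called with limma-voom (1.24, adjusted p = 0.0147). Npas2 and Clock are the members with the longest loci, 169.0 and 94.9 kb. Genes of 100 to 200 kb, the class of Npas2, fell in 40.6% of cases in HFD-337 against HFD-NS. Genes of 10 to 100 kb, the class of Clock, fell in 24.6% and genes under 10 kb in 9.88%. The shares that rose were 9.14%, 20.6% and 40%, in the same order. Dbp (5.0 kb) and Nr1d1 (7.4 kb) belong to the shortest class. The part of locus length in the fall of Clock or in the rise of any member was not tested.

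The period genes encode repressors that bind the cryptochromes, and Per2 was highest in HFD-337. Per2 (chromosome 1, 91343704 to 91387050, minus strand, mm39) was at 58.5, 56.6 and 81.2 CPM in HFD-337, 18.9, 15.2 and 23.2 CPM in HFD-338, 32.8, 31.3 and 41.8 CPM in HFD-Res, 25.7, 23.5 and 33.4 CPM in HFD-NS, and 15.98, 18.7 and 15.5 CPM in SD-NS. HFD-337 lay above all other libraries, whereas HFD-338 overlapped SD-NS and HFD-Res overlapped HFD-NS. The gene rose by 1.24 ± 0.17 on the log2 scale in HFD-337 against HFD-NS (adjusted p = 1.8e-05) and by 0.87 ± 0.17 in HFD-337 against HFD-Res (adjusted p = 0.000531). It fell by 0.53 ± 0.18 in HFD-338 against HFD-NS (adjusted p = 0.0279), a call lost on recomputed TPM (adjusted p = 0.1). Leaving out HFD-NS replicate 16 (0.141), HFD-338 replicate 17 (0.074) or its replicate 18 (0.144) also ended it. The rise of 0.72 ± 0.19 in HFD-NS against SD-NS (adjusted p = 0.00958) was no longer called without HFD-NS replicate 16 (adjusted p = 0.0522).

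Per3, whose promoter window holds the D-box form TTATGTAA 2 times, had a range second to that of Dbp among the members, with a mean 23.9-fold higher in HFD-337 than in SD-NS. The gene (chromosome 4, 151088112 to 151129122, minus strand, mm39) measured 62.2, 38.5 and 62.9 CPM in HFD-337, 6.61, 5.81 and 15.4 CPM in HFD-338, 50.3, 50.6 and 32.3 CPM in HFD-Res, 5.26, 12.9 and 27.4 CPM in HFD-NS, and 2.66, 1.94 and 2.25 CPM in SD-NS. HFD-337 and HFD-Res overlapped each other and lay above every HFD-338, HFD-NS and SD-NS library. Per3 rose by 1.82 ± 0.49 on the log2 scale in HFD-337 against HFD-NS (adjusted p = 0.0112) and by 2.71 ± 0.74 in HFD-NS against SD-NS (adjusted p = 0.0204). That second call was lost without any of SD-NS replicates 6, 7 and 8 (adjusted p = 0.0671, 0.0756 and 0.0513) and without HFD-NS replicate 16 (0.0622), while the difference kept its sign at 1.94 to 3.11. With limma-voom and in the fit of both groups alone it was not called either (adjusted p = 0.0748 and 0.0747), and a fit of HFD-337 and HFD-NS alone also ended the HFD-337 call (0.0641). In HFD-Res against HFD-NS the difference of 1.52 ± 0.50 was not called (adjusted p = 0.0768) although the groups did not overlap. It was called at 2.28 without HFD-NS replicate 16 (adjusted p = 0.012).

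Per1, an immediate responder to hormonal and feeding signals as well as a clock gene, did not follow the other period genes (chromosome 11, 68989775 to 69000783, plus strand, mm39). Its level was 8.07, 33.4 and 39.8 CPM in HFD-337, 20.3, 17.2 and 23.2 CPM in HFD-338, 14.99, 9.66 and 21.1 CPM in HFD-Res, 22.6, 15.2 and 18.1 CPM in HFD-NS, and 27.3, 26.8 and 24.2 CPM in SD-NS. In HFD-337 the lowest library, replicate 23, was below every other library of the study and the other 2 were above all of them. Per1 was called in 0 of the 10 pairwise comparisons with edgeR, and in 0 of them was its unadjusted p under 0.05. Fits of 2 groups alone called it lower in HFD-NS than in SD-NS (-0.45, adjusted p = 0.0301) and lower in HFD-Res than in SD-NS (-0.69, adjusted p = 0.0218). Without HFD-337 replicate 23 it was 0.96 higher in HFD-337 than in HFD-NS on the log2 scale (adjusted p = 0.00199), 0.86 higher than in HFD-338 (adjusted p = 0.00319) and 1.22 higher than in HFD-Res (adjusted p = 0.000484).

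The cryptochromes carry most of the repression of CLOCK and BMAL1, and in HFD-NS against SD-NS Cry1 fell while Cry2 rose. Cry1 (chromosome 10, 84967564 to 85020918, minus strand, mm39) read 3.15, 5.07 and 4.67 CPM in HFD-337, 7.98, 6.31 and 6.68 CPM in HFD-338, 9.21, 9.89 and 12.4 CPM in HFD-Res, 13.7, 8.82 and 7.48 CPM in HFD-NS, and 22.2, 14.6 and 14.6 CPM in SD-NS. Every HFD-337 library was below and every SD-NS library above all others. Cry1 fell by 1.18 ± 0.26 on the log2 scale in HFD-337 against HFD-NS (adjusted p = 0.00105), by 1.27 ± 0.27 in HFD-337 against HFD-Res (adjusted p = 0.000764) and by 0.81 ± 0.22 in HFD-NS against SD-NS (adjusted p = 0.0112). The last of these calls was lost when SD-NS replicate 6 (adjusted p = 0.121) or replicate 16 of HFD-NS (0.0641) was left out. In HFD-338 against HFD-NS the difference was -0.51 ± 0.23 (adjusted p = 0.0975, and 0.0375 without HFD-NS replicate 16). Cry1 carries an E-box and its variant 60 and 79 bases before the start in the window printed above, and like Clock it was lowest in HFD-337 and highest in SD-NS.

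Cry2 (chromosome 2, 92233991 to 92264414, minus strand, mm39) was at 41.4, 41.7 and 30.4 CPM in HFD-337, 22.4, 19.8 and 29.6 CPM in HFD-338, 31.3, 32.4 and 22.5 CPM in HFD-Res, 16.2, 26.3 and 33.9 CPM in HFD-NS, and 12.1, 14.97 and 13.8 CPM in SD-NS. Only the SD-NS libraries stood apart, below all others. Cry2 rose by 0.92 ± 0.26 on the log2 scale in HFD-NS against SD-NS (adjusted p = 0.0163), a call that ended on leaving out SD-NS replicate 6 (0.0766) or replicate 16 of HFD-NS (0.0686). The difference of 0.57 ± 0.23 in HFD-337 against HFD-NS missed the threshold (adjusted p = 0.0549) and passed it when replicate 16 of HFD-NS (0.84, adjusted p = 0.00684) or replicate 27 of HFD-337 (0.68, adjusted p = 0.0433) was left out. Exons of D930015M05Rik cover 3.72% of the exon length of Cry2, and reads there counted for both genes.

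The REV-ERB receptor gene Nr1d1 separated the groups, with little spread within HFD-337 and HFD-Res (highest over lowest library 1.06 and 1.07). The spread was wider within HFD-NS (1.39), HFD-338 (1.63) and SD-NS (1.92). Nr1d1 (chromosome 11, 98658758 to 98666203, minus strand, mm39) stood at 79.2, 83.5 and 78.7 CPM in HFD-337, 22.1, 20.04 and 32.7 CPM in HFD-338, 44.5, 47.2 and 44.0 CPM in HFD-Res, 49.7, 68.3 and 68.9 CPM in HFD-NS, and 7.32, 7.78 and 14.1 CPM in SD-NS. The 5 groups did not overlap at all, in the order HFD-337, HFD-NS, HFD-Res, HFD-338 and SD-NS from high to low. Nr1d1 rose by 2.75 ± 0.22 on the log2 scale in HFD-NS against SD-NS (adjusted p = 7.66e-07), a 6.41-fold difference of means. It fell by 1.32 ± 0.19 in HFD-338 against HFD-NS (adjusted p = 7.03e-05), a call that held in all fits without 1 library. In HFD-337 against HFD-NS the difference was 0.37 ± 0.18 (adjusted p = 0.104, and 0.0452 in the fit of both groups alone), and in HFD-Res against HFD-NS it was -0.46 ± 0.19 (adjusted p = 0.123, and 0.0452 without HFD-NS replicate 12). HFD-337 exceeded HFD-338 by 1.69 ± 0.19 (adjusted p = 2.99e-06) and HFD-Res by 0.83 ± 0.19 (adjusted p = 0.00173).

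Nr1d1 overlaps Thra, the gene of thyroid hormone receptor alpha, over 9.51% of its exon length, and reads in the overlap counted for both genes because strand was not used. Thra itself averaged 40.6 ± 6.85 CPM in HFD-337, 15.7 ± 1.74 CPM in HFD-338, 18.3 ± 2.36 CPM in HFD-Res and 24.1 ± 3.41 CPM in HFD-NS, with SD-NS at 11.5 ± 2.21 CPM (SD, n = 3 each). It rose by 1.07 ± 0.17 on the log2 scale in HFD-NS against SD-NS (adjusted p = 0.000138) and by 0.76 ± 0.15 in HFD-337 against HFD-NS (adjusted p = 0.00034), and fell by 0.62 ± 0.15 in HFD-338 against HFD-NS (adjusted p = 0.00417). How much of either value comes from shared reads was not tested.

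Nr1d2, the second REV-ERB gene (chromosome 14, 4230590 to 4265640, plus strand, mm39), measured 114.8, 109.0 and 133.9 CPM in HFD-337, 62.9, 68.4 and 113.2 CPM in HFD-338, 143.7, 140.5 and 136.1 CPM in HFD-Res, 76.4, 100.9 and 109.1 CPM in HFD-NS, and 39.4, 54.4 and 56.3 CPM in SD-NS. It was the only member whose HFD-Res libraries lay above all 12 others, and its SD-NS libraries lay below all others. Nr1d2 rose by 0.95 ± 0.21 on the log2 scale in HFD-NS against SD-NS (adjusted p = 0.00503). The difference was 0.55 ± 0.20 in HFD-Res against HFD-NS (adjusted p = 0.0984, groups not overlapping), 0.32 ± 0.20 in HFD-337 (adjusted p = 0.216) and -0.23 ± 0.20 in HFD-338 (adjusted p = 0.406). Without HFD-338 replicate 19, its highest library, the difference in HFD-338 was -0.55 (adjusted p = 0.0127). The ratio of Nr1d2 to Nr1d1 counts was 1.31 to 1.70 in HFD-337, 2.85 to 3.46 in HFD-338, 2.98 to 3.23 in HFD-Res, 1.48 to 1.58 in HFD-NS and 4 to 7 in SD-NS, with overlap between HFD-337 and HFD-NS and between HFD-338 and HFD-Res.

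Dbp, a D-box transcription factor that passes the clock signal to liver metabolic genes, had the widest range of the 10. Dbp (chromosome 7, 45354671 to 45359627, plus strand, mm39) was at 95.7, 74.1 and 103.5 CPM in HFD-337, 7.87, 6.43 and 20.8 CPM in HFD-338, 49.5, 52.7 and 46.8 CPM in HFD-Res, 7.47, 19.7 and 57.7 CPM in HFD-NS, and 3.06, 3.11 and 3.09 CPM in SD-NS. HFD-337 lay above and SD-NS below all other libraries, while HFD-NS overlapped both HFD-338 and HFD-Res. The group mean was 29.5-fold higher in HFD-337 than in SD-NS and 16.1-fold higher in HFD-Res than in SD-NS. Dbp rose by 3.20 ± 0.83 on the log2 scale in HFD-NS against SD-NS (adjusted p = 0.0159), a call lost without SD-NS replicate 6 (0.0619) or 7 (0.0587), with limma-voom (0.0751) and in the fit of both groups alone (0.0996), and by 1.67 ± 0.57 in HFD-337 against HFD-NS (adjusted p = 0.0348). The HFD-337 call was lost when HFD-NS replicate 12 (0.064) or 13 (0.112) or replicate 23 (0.0702) or 27 (0.0831) of HFD-337 was left out, with differences of 1.22 to 2.74 over such fits. It was also lost without the filter on low counts (0.0561) and in the fit of both groups alone (0.144). Against HFD-NS the difference was -1.30 ± 0.63 in HFD-338 (adjusted p = 0.137, and 0.0247 without HFD-NS replicate 12) and 0.80 ± 0.58 in HFD-Res (adjusted p = 0.449, and 0.0347 without HFD-NS replicate 16). HFD-337 exceeded HFD-338 by 2.97 ± 0.63 (adjusted p = 0.00216).

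Exons of Sphk2, a sphingosine kinase gene, cover 32.12% of the exon length of Dbp, so reads in that part cannot be told apart from Sphk2 without strand. Sphk2 averaged 112.9 ± 9.83 CPM in HFD-337, 34.4 ± 6.23 CPM in HFD-338, 60.6 ± 1.14 CPM in HFD-Res and 52.1 ± 21.1 CPM in HFD-NS, with SD-NS at 27.3 ± 5.09 CPM (SD, n = 3 each). It rose by 1.11 ± 0.22 on the log2 scale in HFD-337 against HFD-NS (adjusted p = 0.00128) and by 0.96 ± 0.24 in HFD-NS against SD-NS (adjusted p = 0.0109). In SD-NS, Sphk2 was at 23.0 to 32.9 CPM while Dbp, shared reads included, was at 3.06 to 3.11 CPM. How much of the rise of Dbp comes from shared reads, or goes with its short locus (5.0 kb), was not tested.

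Per length, the members changed their order between groups. In HFD-337 the mean was 95.9 ± 18 TPM for Dbp, 51.3 ± 3.48 TPM for Nr1d1 and 9.91 ± 0.66 TPM for Clock (depth-scaled and length-scaled counts, SD, n = 3). In SD-NS it was 3.32 ± 0.11 TPM for Dbp, 6.39 ± 2.702 TPM for Nr1d1 and 26.3 ± 1.41 TPM for Clock, which was the highest of the 10. Npas2 was the lowest member per length in HFD-337 (0.69 ± 0.27 TPM), HFD-338 (2.65 ± 0.69 TPM), HFD-Res (0.68 ± 0.19 TPM) and HFD-NS (1.32 ± 1.02 TPM), whereas Per3 was the lowest in SD-NS (0.68 ± 0.11 TPM).

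Animals within HFD-NS differed from one another along the same lines as the groups. HFD-NS replicate 16 had the highest value of its group in 6 members (Per2, Per3, Cry2, Nr1d1, Nr1d2 and Dbp) and the lowest in 3 (Clock, Npas2 and Cry1). HFD-NS replicate 12 had the lowest value in 5 members (Per3, Cry2, Nr1d1, Nr1d2 and Dbp) and the highest in 4 (Clock, Npas2, Per1 and Cry1). In HFD-338, replicate 19 was the highest in 8 members (Per2, Per3, Cry2, Nr1d1, Nr1d2, Dbp, Clock and Per1) and the lowest in 1 (Npas2). It thus shared the 6 highest members of HFD-NS replicate 16, but its order differed in Clock, Per1 and Cry1. The ratio of Dbp to Arntl counts, an E-box target against the partner of Clock, was 16.2, 7.31 and 30 in the HFD-337 livers, 0.33, 0.27 and 1.16 in the HFD-338 livers, 4.53, 6.19 and 4.67 in the HFD-Res livers, 0.34, 1.59 and 6.44 in the HFD-NS livers, and 0.10, 0.09 and 0.09 in the SD-NS livers. The 3 HFD-NS animals reached from the values of HFD-338 to those of HFD-Res, whereas the SD-NS and HFD-Res animals lay close together.

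**Figure D3:**
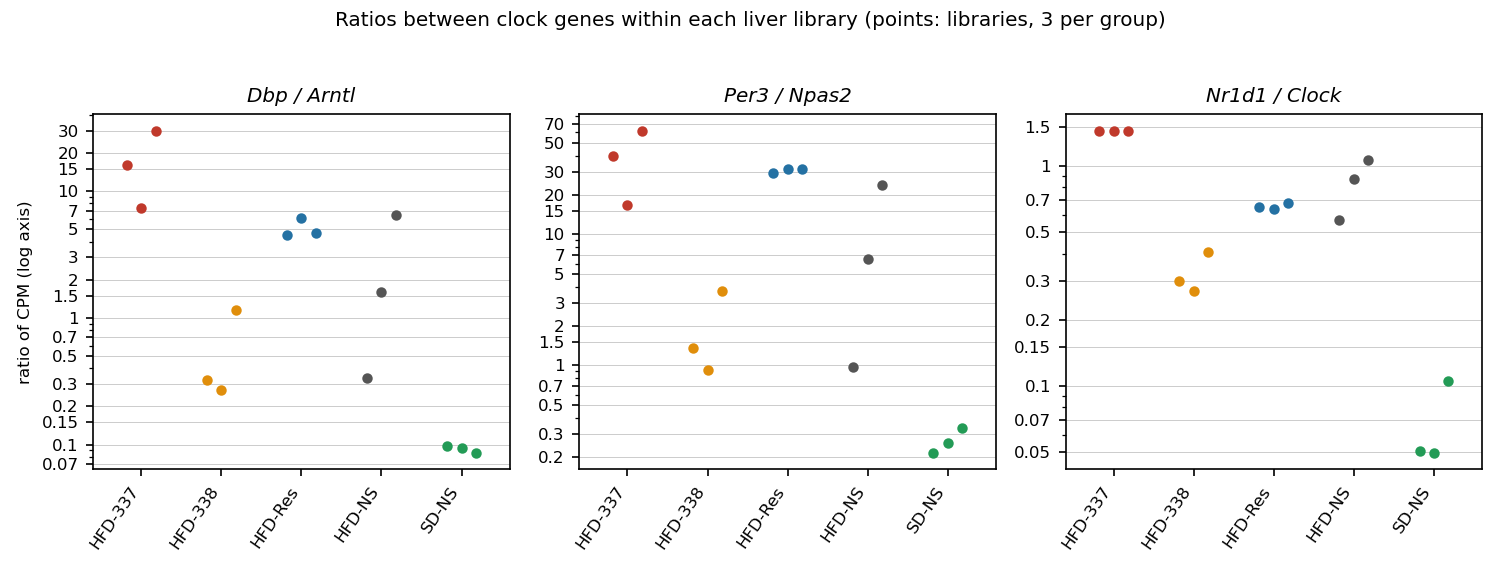
Ratios of counts (log axis) of Dbp to Arntl, Per3 to Npas2 and Nr1d1 to Clock within each library of HFD-337, HFD-338, HFD-Res, HFD-NS and SD-NS; each point is a library (3 per group). For Dbp to Arntl the 3 HFD-NS points run from 0.34 to 6.44, while the SD-NS points lie between 0.09 and 0.10.

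The other genes of the loop were described from a list of 17 regulators, all of them tested. In HFD-NS against SD-NS 4 rose and 3 fell, in HFD-337 against HFD-NS 3 rose and 3 fell, and in HFD-Res against HFD-NS 2 fell. The shares of all tested genes called there were 28.1%, 47.2% and 13%, so the 6 calls among 17 in HFD-337 lie below the background. In HFD-338 against HFD-NS edgeR called 0, with 3 at an unadjusted p under 0.05, while DESeq2 called 1 (Nono), limma-voom 2 (Arntl and Csnk1e) and recomputed TPM 1 (Nono). Arntl, the gene of BMAL1, was at 5.91, 10.1 and 3.45 CPM in HFD-337, 24.2, 23.8 and 17.9 CPM in HFD-338, 10.9, 8.51 and 10.02 CPM in HFD-Res, 22.3, 12.4 and 8.96 CPM in HFD-NS, and 31.3, 33.3 and 36.0 CPM in SD-NS. The SD-NS libraries lay above all others, and HFD-NS overlapped each of HFD-337, HFD-338 and HFD-Res. Arntl fell by 1.20 ± 0.30 on the log2 scale in HFD-NS against SD-NS (adjusted p = 0.0105), with the call kept in every setting tried. Its fall of 1.06 ± 0.35 in HFD-337 against HFD-NS (adjusted p = 0.0245) was lost in 6 of the 12 settings.

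Rora encodes a receptor that competes with REV-ERB for the same element and activates Arntl. Rora averaged 66.5 ± 5.998 CPM in HFD-337, 91.0 ± 6.73 CPM in HFD-338, 88.7 ± 8.96 CPM in HFD-Res and 97.7 ± 7.23 CPM in HFD-NS, with SD-NS at 190.7 ± 11.3 CPM (SD, n = 3 each). It fell by 0.56 ± 0.10 on the log2 scale in HFD-337 against HFD-NS (adjusted p = 0.000174) and by 0.97 ± 0.10 in HFD-NS against SD-NS (adjusted p = 1.74e-06). Bhlhe40, a repressor at E-boxes, rose by 1.57 ± 0.26 in HFD-NS against SD-NS (adjusted p = 0.000873). Ciart, a repressor of CLOCK and BMAL1 whose promoter window holds 3 E-boxes, was at 2.69, 4.97 and 17.8 CPM in HFD-NS against 0.80, 0.78 and 0.84 CPM in SD-NS. Its rise of 3.40 ± 0.86 (adjusted p = 0.0126) was lost without SD-NS replicate 6 or 7, with limma-voom and in the fit of those 2 groups. Bhlhe41, which is related to Bhlhe40, rose by 2.04 ± 0.56 in HFD-NS against SD-NS (adjusted p = 0.0103), a call that ended on leaving out SD-NS replicate 6 or replicate 16 of HFD-NS. It fell in HFD-Res against HFD-NS (adjusted p = 0.00174), at 0.21, 0 and 0.44 CPM against 1.52, 2.11 and 4.85 CPM.

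Of the remaining regulators, Fbxl21, which encodes a ubiquitin ligase subunit for cryptochromes, rose by 1.33 ± 0.26 on the log2 scale in HFD-NS against SD-NS (adjusted p = 0.000808) and by 0.63 ± 0.21 in HFD-337 against HFD-NS (adjusted p = 0.017). Fbxw11 fell by 0.35 ± 0.13 in HFD-337 against HFD-NS (adjusted p = 0.0367). Rorb was at a mean of 2.24 CPM in HFD-337 and 0.54 CPM in HFD-NS, a rise of 1.95 ± 0.62 (adjusted p = 0.0145). It reached the 1.41 CPM of the filter on low counts in 4 of the 15 libraries, 2 of them HFD-337 and 0 of them HFD-NS, and would not have been tested without HFD-337. Nono fell by 0.30 ± 0.08 in HFD-NS against SD-NS (adjusted p = 0.0115), and Csnk1d, a kinase of PER proteins, fell by 0.30 ± 0.10 in HFD-Res against HFD-NS (adjusted p = 0.0499). Each of these calls except that of Fbxl21 in HFD-NS was lost in 2 or more of 12 settings, and that of Csnk1d in 10. Arntl2, Timeless, Csnk1e, Btrc and Sirt1 had adjusted p-values of 0.0502 to 0.981 in these 4 comparisons.

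**Figure D4:**
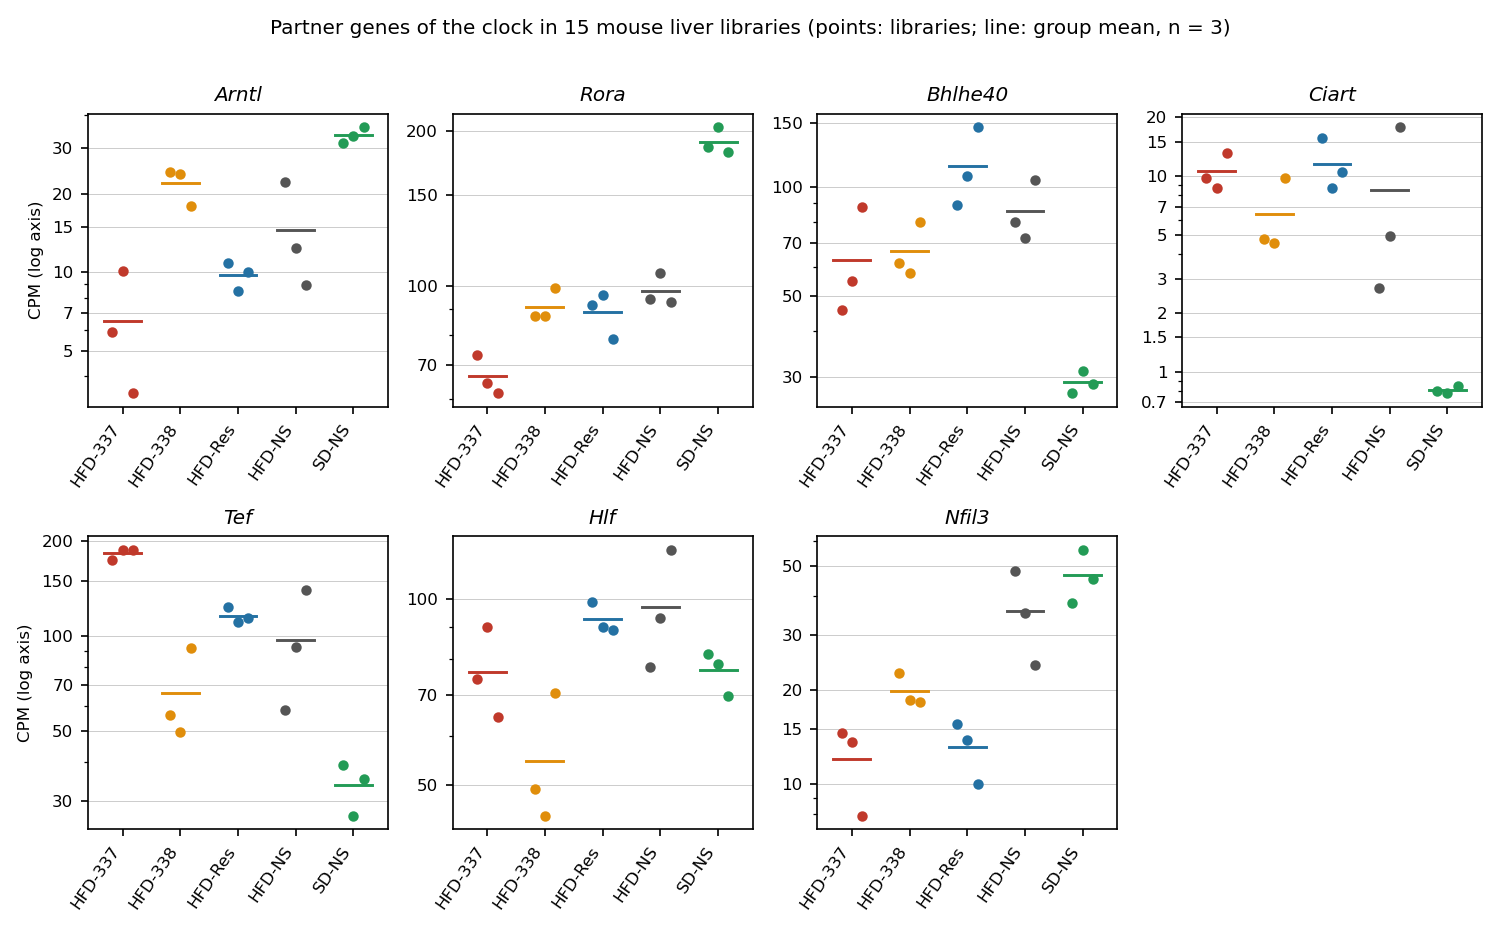
TMM-scaled CPM (log axis) of Arntl, Rora, Bhlhe40, Ciart, Tef, Hlf and Nfil3 in HFD-337, HFD-338, HFD-Res, HFD-NS and SD-NS livers; each point is a library and each line the mean of a group (n = 3). Tef and Ciart are lowest in SD-NS, Rora and Arntl are highest there, and Hlf has its lowest mean in HFD-338 (44.7 to 70.4 CPM).

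Among the D-box factors, Tef followed Dbp. Tef, a relative of Dbp, was at 174.8, 188.3 and 187.3 CPM in HFD-337, 56.2, 50.0 and 91.9 CPM in HFD-338, 124.2, 111.1 and 114.3 CPM in HFD-Res, 58.5, 92.8 and 140.4 CPM in HFD-NS, and 39.0, 27.0 and 35.4 CPM in SD-NS. As for Dbp, HFD-337 lay above and SD-NS below all other libraries. It rose by 1.52 ± 0.31 on the log2 scale in HFD-NS against SD-NS (adjusted p = 0.00391) and by 0.92 ± 0.29 in HFD-337 against HFD-NS (adjusted p = 0.0211, lost on leaving out replicate 13 of HFD-NS or 26 or 27 of HFD-337). Hlf, the other relative, fell by 0.83 ± 0.18 in HFD-338 against HFD-NS (adjusted p = 0.00193) and was called neither in HFD-337 or HFD-Res against HFD-NS (adjusted p = 0.122 and 0.86) nor in HFD-NS against SD-NS (adjusted p = 0.173). Nfil3, which represses D-box genes, fell by 1.55 ± 0.27 in HFD-337 (adjusted p = 0.000349), by 0.85 ± 0.25 in HFD-338 (adjusted p = 0.0166) and by 1.47 ± 0.27 in HFD-Res (adjusted p = 0.00247), each against the same HFD-NS libraries. Its fall in HFD-338 was lost without HFD-NS replicate 12 or HFD-338 replicate 18 and on recomputed TPM.

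A list of 10 tested genes that REV-ERB represses in liver includes the members Clock, Npas2 and Cry1, and Arntl and Nfil3, described above. Against HFD-NS it had 1 rise and 7 falls in HFD-337, 0 rises and 5 falls in HFD-338, and 1 rise and 2 falls in HFD-Res. HFD-NS against SD-NS gave 1 rise and 8 falls. The shares of all tested genes called in these comparisons, in the same order, were 47.2%, 36.8%, 13% and 28.1%. The median log2 difference of the list was -1.12 in HFD-337, -0.52 in HFD-338, -0.72 in HFD-Res and -0.99 in HFD-NS against SD-NS. The medians over all tested genes there were 0.03, 0.00, 0.01 and -0.02. Outside the loop, Insig2, which restrains sterol synthesis, averaged 156.3 ± 23.0 CPM in HFD-337, 265.1 ± 11.8 CPM in HFD-338, 451.4 ± 47.7 CPM in HFD-Res and 383.4 ± 99.1 CPM in HFD-NS, with SD-NS at 1116 ± 59.4 CPM. By rank of change Insig2 is the fifth gene of the list in HFD-337, and there it was chosen after its values were seen, with a fall of 1.29 ± 0.16 on the log2 scale against HFD-NS (adjusted p = 3.06e-06). It fell by 1.54 ± 0.15 in HFD-NS against SD-NS (adjusted p = 1.87e-06). Avpr1a, a vasopressin receptor, was the rise in HFD-337 (1.38 ± 0.16, adjusted p = 1.99e-06) and in HFD-Res (0.97 ± 0.16, adjusted p = 0.000432).

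Of 13 tested clock output genes of liver, 1 rose and 4 fell in HFD-337 against HFD-NS, 1 rose and 4 fell in HFD-338, 2 rose and 1 fell in HFD-Res, and 3 rose and 2 fell in HFD-NS against SD-NS. With 47.2%, 36.8%, 13% and 28.1% of all genes called in these comparisons, the 5 calls in HFD-337 are below the background and the 5 in HFD-338 near it. Their median log2 difference was -0.23 in HFD-337, -0.49 in HFD-338, 0.33 in HFD-Res and 0.16 in HFD-NS against SD-NS. Por, which supplies electrons to cytochromes P450, fell by 0.96 ± 0.19 on the log2 scale in HFD-337 (adjusted p = 0.000891) and by 0.89 ± 0.19 in HFD-338 against HFD-NS (adjusted p = 0.00206), and by 0.97 ± 0.19 in HFD-NS against SD-NS (adjusted p = 0.00163). Gys2, the liver glycogen synthase, fell by 0.42 ± 0.09 in HFD-Res against HFD-NS (adjusted p = 0.00393). Lpin1, an enzyme and coactivator of lipid metabolism, fell by 1.76 ± 0.48 in HFD-337 against HFD-NS (adjusted p = 0.0121). The rise there was that of Tspan4, a tetraspanin, by 1.27 ± 0.175 (adjusted p = 1.55e-05), and both calls held in all 12 settings. Wee1, a kinase that delays mitosis, rose by 0.85 ± 0.22 in HFD-Res against HFD-NS (adjusted p = 0.0117) and by 0.93 ± 0.26 in HFD-NS against SD-NS (adjusted p = 0.0112), calls lost in 3 and in 1 of 12 settings. Upp2, a uridine phosphorylase, rose by 1.78 ± 0.53 in HFD-NS against SD-NS (adjusted p = 0.029), which was lost in 5.

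Genes that respond to feeding state were counted in the same comparisons, and their part in the clock results was not tested. Of 9 tested fasting-induced genes 0 rose and 7 fell in HFD-NS against SD-NS, and 0 rose and 4 fell in HFD-337 against HFD-NS, while 1 rose and 0 fell in HFD-338 and 1 rose and 1 fell in HFD-Res. The 7 calls in HFD-NS stand against 28.1% of all genes, and the 4 in HFD-337 are near the background of 47.2%. In HFD-338 and in HFD-Res against HFD-NS 36.8% and 13% of all genes were called. These shares are also the background of the lists that follow. Pdk4, which spares glucose in fasting, was at 22.8 ± 10.7 CPM in HFD-NS against 252.6 ± 12.3 CPM in SD-NS (log2 difference -3.48 ± 0.37, adjusted p = 7.34e-05). Of 8 feeding-induced genes 3 rose and 0 fell in HFD-NS against SD-NS, 0 rose and 1 fell in HFD-337 against HFD-NS, and 1 rose and 2 fell in HFD-338 against HFD-NS. In HFD-Res against HFD-NS 4 of them rose and 0 fell, among the rises Fasn by 2.11 ± 0.19 (adjusted p = 4.27e-06). Targets of the receptor for glucocorticoids, hormones that set peripheral clocks, gave 1 rise and 1 fall among 9 in HFD-NS against SD-NS. In HFD-337 against HFD-NS these targets gave 0 rises and 3 falls, below the background of 47.2%. Zbtb16 fell there by 2.32 ± 0.37 (adjusted p = 0.00044). HFD-338 and HFD-Res each had 1 rise and 1 fall against HFD-NS. Of 8 temperature-responsive genes 0 rose and 1 fell in HFD-NS against SD-NS, and against HFD-NS 2 rose and 1 fell in HFD-337, 1 rose and 1 fell in HFD-338, and 0 rose and 1 fell in HFD-Res. Of 6 immediate early genes 1 rose in HFD-337 against HFD-NS (Ier2) and 1 in HFD-NS against SD-NS (Junb).

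The genes most like the members over the 15 libraries (Pearson's r of log2 CPM, 12839 genes compared, a description that includes the differences between groups) were partly other clock genes. Dbp was most like Tef (r = 0.983), Nit2 (0.956) and Usp2 (0.952). Per3 was most like the same 3 genes, Tef (0.963), Usp2 (0.955) and Nit2 (0.946), both Tef and Usp2 being known clock outputs. Among the genes most like Nr1d2 were Usp2 (0.926) and B4galnt3 (0.914). For Per2 they were Rex1bd (0.971), Map2k3 (0.965) and Sphk2 (0.953), and for Nr1d1 C730036E19Rik (0.953), Fzd8 (0.947) and Bco2 (0.942). For Clock they were Birc6 (0.981), Creg1 (0.977) and 4932438A13Rik (0.975), for Npas2 Ephx1 (0.933), Spon2 (0.929) and Hfe (0.928), and for Cry1 Larp4 (0.939), Spryd7 (0.939) and Ubqln1 (0.938). Cry2 had Klhl31 (0.931), Dusp19 (0.92) and Spns2 (0.919). Per1 had the weakest likeness of the 10, with Errfi1 (0.824), Tmem201 (0.816) and Gm13262 (0.815). Arntl, picked out after its values were seen, was the gene most opposite to Dbp (r = -0.955).

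Libraries held 3873903 to 9797743 counts, and members took 0.0254% to 0.0575% of them. Stk25 averaged 17.5 ± 2.50 CPM in HFD-337, 21.5 ± 0.81 CPM in HFD-338, 42.0 ± 4.62 CPM in HFD-Res and 46.5 ± 2.53 CPM in HFD-NS, with SD-NS at 50.6 ± 2.73 CPM (SD, n = 3 each). It was called lower against HFD-NS in both numbered groups (edgeR adjusted p = 3.8e-08 in HFD-337 and 6.41e-07 in HFD-338). The part of Stk25 in the clock results was not tested. The 6 hepatocyte markers summed to 92050 to 138400 CPM in HFD-337, 103600 to 112400 CPM in HFD-338, 77960 to 86330 CPM in HFD-Res, 114100 to 128400 CPM in HFD-NS and 122600 to 146500 CPM in SD-NS, with every HFD-Res library below all others. Of the 6 markers, 3 were called lower and 0 higher in HFD-Res than in HFD-NS (background 13%). Summed bile duct markers (5 genes, none at 0) were 61.3 to 238.8 CPM in HFD-337, 578.8 to 731.8 CPM in HFD-338 and 74.1 to 85.6 CPM in HFD-Res against 47.3 to 63.1 CPM in HFD-NS. Stellate cell markers (5 genes, none at 0) were 91.3 to 222.1 CPM in HFD-337, below every HFD-NS library, and 697.7 to 1191 CPM in HFD-338, above every one of them, against 242.5 to 330.6 CPM in HFD-NS. Sinusoidal endothelium markers (5 genes, none at 0) were 47.0 to 61.0 CPM in HFD-337 and 52.1 to 91.3 CPM in HFD-338 against 127.7 to 161.7 CPM in HFD-NS. Macrophage markers (5 genes, none at 0) were 35.6 to 90.4 CPM in HFD-337 and 173.9 to 469.3 CPM in HFD-338 against 100.1 to 145.4 CPM in HFD-NS. Abundant markers weigh most in such sums. In HFD-337 against HFD-NS 2 of 5 stellate and 1 of 5 macrophage markers were called, all lower (background 47.2%). Dcn averaged 85.8 against 209.3 CPM there, but Col1a1 18.4 against 14.9 CPM. In HFD-338 3 of 5 were called in each list, all higher (background 36.8%), and Lyz2 averaged 183.6 CPM. Of the 5 sinusoidal endothelium markers, 5 were called lower in HFD-337 and 4 in HFD-338 against HFD-NS, and 0 higher. Of the 5 bile duct markers, 2 were called higher in HFD-337 and 5 in HFD-338, and 0 lower. The part of these cell types in the clock results was not tested, and in whole liver fewer cells of a type and less RNA per cell cannot be told apart.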

How the data were processed

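Per the labels, total liver RNA was selected for polyadenylated RNA. Tools listed in the submitters' processing notes are STAR 2.7.10b, featureCounts 2.0.1, Bowtie 1.3.1 and Trim Galore 0.6.10, with build mm39. The authors deposited raw counts per gene, which per the file headers hold exon reads counted without strand and for every overlapping gene. Columns were matched to samples by label. A deposited TPM table was not used, since its 15 columns carry no replicate number, and TPM was recomputed from the deposited counts and exon lengths.

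Members and gene lists were chosen with earlier results of these data known. Genes kept by filterByExpr (13189) were scaled by TMM, and 1 model of all libraries was fitted in edgeR 4.0.16 (R 4.3.3) (robust quasi-likelihood test, Benjamini-Hochberg adjustment, called under 0.05). CPM are TMM-scaled, values after ± are SDs for levels and standard errors for log2 differences, and the common biological coefficient of variation was 0.134. Npas2 had 5 to 93 counts per library. No pair of libraries among 105 had identical counts. The procedure was tested on simulated data in which few genes differed between groups. Its false calls were not checked where as many genes differ as here. Named genes are all members, all other-loop and D-box genes, up to 4 called genes with the largest difference per other list and comparison, and the 3 genes most like each member (mean CPM at least 1), and a few genes that this rule names are not reported here. Alternatives were RLE factors, no filter, DESeq2 1.42.0, limma 3.58.1 voom with quality weights, fits of 2 groups, recomputed TPM (log2 of TPM plus 1) and leaving out each library.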

Additional observations from a re-analysis of the deposited data

How the results depend on the processing

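Over 100 pairs of member and comparison, the other settings gave 600 values, of which 563 kept their side of the threshold, 16 lost the call, 20 gained it and 1 gave no value. Leaving out 1 library gave 600 values, of which 548 kept their side, 40 lost the call and 12 gained it. No called difference reversed. In HFD-Res against HFD-NS, 0 members called became 1 with DESeq2, 1 with limma-voom, 1 on recomputed TPM and 2 in the fit of those groups. In HFD-338 against HFD-NS, 2 became 1 on recomputed TPM and 3 with limma-voom, which also called Npas2 higher. Without 1 library the count ran from 5 to 9 in HFD-NS against SD-NS, from 1 to 4 in HFD-338 against HFD-NS, from 0 to 2 in HFD-Res against HFD-NS, from 4 to 6 in HFD-337 against HFD-NS, from 6 to 8 in HFD-337 against HFD-338, and from 3 to 5 in HFD-338 against SD-NS. The cause was not tested. On recomputed TPM the median log2 difference of all genes was -0.23 in HFD-337 against HFD-338, 0.12 in HFD-338 against HFD-Res, 0.18 in HFD-338 against SD-NS and 0.12 in HFD-338 against HFD-NS, and members called higher in HFD-337 than in HFD-338 there were 4 in place of 6. No paired analysis was possible because the groups share no replicate numbers. Npas2 had 5 to 93 counts per library, and its differences had standard errors of 0.38 to 0.60 on the log2 scale.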
